A study of Rattus norvegicus with 48 samples.

Results

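Havcr1, the gene for kidney injury molecule, was followed in rat kidney over 4 strains and 3 time points. It was chosen by its symbol in the platform annotation, which gave 1 probe set (7066963, Entrez gene 286934) of the 8797 probe sets on the arrays, 7603 of which carried a single gene symbol. Male rats, 12 weeks old in the sample labels and 12 to 14 weeks in the treatment protocol, belonged to strains named F, L, FL and LF, letters that the labels do not explain and for which they give no genotype. By gavage they received indole-3-carbinol, a plant compound, at 100 mg per kg body weight daily for 7 or 10 days. Control rats were gavaged with the vegetable oil carrier and are called day 0. Treatment groups held 8 rats, and each of the 12 combinations of strain and day is represented by 4 arrays (48 in total). The labels leave unsaid if RNA was pooled. The series design names the arrays biological replicates, so each p-value below measures the spread between these arrays. Values are log2 signals, and the number of arrays limits their precision.

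Havcr1, also called KIM-1 or TIM-1, encodes a membrane protein with an immunoglobulin domain and a mucin stalk. It is scarcely made in the healthy proximal tubule, the nephron segment that reabsorbs most of the filtrate, and appears there after injury. The injured cells use it as a phosphatidylserine receptor to take up dying neighbours, and its outer part is shed into urine, where it serves as a marker of tubular damage. Outside the kidney it is carried by some T and B lymphocytes. Indole-3-carbinol yields products that activate the aryl hydrocarbon receptor (AhR), whose best known target is Cyp1a1.

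The promoter is shown because the comparisons below turn on how far the Havcr1 transcript rose, and that of Timd2, the next gene of the family, because its signal moved differently. RefSeq, build GRCr8, gives 300 bases for each, 250 before and 50 after the start site of the transcript, read 5′ to 3′ on the strand of the gene. Havcr1 lies on the plus strand at chr10:31629528-31629827, and Timd2 on the minus strand at chr10:31595827-31596126. Both start sites lie inside the annotated genes, which span chr10:31619914-31652955 for Havcr1 and chr10:31561563-31602515 for Timd2. Bases before any start site further upstream were not scanned. Capitals mark matches, on either strand, to any of 8 short motifs.
Havcr1: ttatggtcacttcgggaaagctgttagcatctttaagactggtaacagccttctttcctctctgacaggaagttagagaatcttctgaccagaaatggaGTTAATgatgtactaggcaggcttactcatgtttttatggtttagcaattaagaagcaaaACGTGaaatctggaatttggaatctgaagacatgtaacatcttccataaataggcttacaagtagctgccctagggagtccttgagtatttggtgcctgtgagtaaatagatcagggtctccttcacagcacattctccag
Timd2: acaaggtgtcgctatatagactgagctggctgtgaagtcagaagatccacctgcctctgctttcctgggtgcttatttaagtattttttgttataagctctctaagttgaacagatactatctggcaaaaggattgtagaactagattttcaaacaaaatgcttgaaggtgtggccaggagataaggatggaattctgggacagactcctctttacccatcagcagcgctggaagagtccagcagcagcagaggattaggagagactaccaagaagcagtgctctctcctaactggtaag

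In the Havcr1 window 2 motifs matched once each. GTTAAT, a core of sites for the tubular factor HNF-1, began at position -151 from the start site and is held by 7.45% of the 33469 promoters in the table. ACGTG, the core of hypoxia response elements, began at position -91 and is held by 19.3%. The AhR core GCGTG (29.7% of promoters), the STAT motif TTCNNNGAA (8.87%), TATAAA (14.2%), TGACTCA of AP-1 (4.63%), TGACGTCA (1.83%) and the antioxidant element TGACNNNGC (12.1%) had no match in these letters. The 2 motifs with a match do not overlap each other, and none of the 8 matched the Timd2 window. GCGTG and ACGTG differ only in their first letter, so a stretch read on 1 strand cannot match both, whereas the AP-1 and antioxidant motifs begin alike and can match the same stretch. A match here is a description of letters and not a binding site.

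The arrays were alike overall. Array medians lay between 5.66 and 6.06, and correlations between arrays of the same group between 0.979 and 0.992. All 5 defining markers of the proximal tubule that were looked up (Lrp2, Cubn, Slc5a2, Slc34a1 and Aqp1) were measured, with day 0 means of 10.29 to 12.06. The annotation has no probe set with a single symbol for the family members Havcr2 and Timd4 or for the annotated Havcr1-like genes Havcr1l1 and Havcr1l2, and how far their transcripts reach the Havcr1 probes was not tested. In whole kidney RNA, more cells making a transcript and more transcript per cell cannot be told apart.

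In carrier kidneys Havcr1 was low and even. The 16 day 0 arrays lay between 3.55 and 4.32, which placed Havcr1 at the 23.3 to 32.4 percentile of all probe sets of the same array. F arrays gave 4.00, 3.66, 3.63 and 3.91 for replicates 1 to 4, a mean of 3.80 ± 0.18 (SD, n = 4). L arrays gave 3.76, 3.82, 4.32 and 3.74, a mean of 3.91 ± 0.28 (SD, n = 4). FL arrays gave 3.86, 3.57, 3.55 and 3.97, a mean of 3.74 ± 0.21 (SD, n = 4). LF arrays gave 3.90, 3.83, 3.95 and 3.84, a mean of 3.88 ± 0.056 (SD, n = 4). All 4 ranges overlap, and L replicate 3 was the highest of the carrier arrays.

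Between strains at day 0 no pair passed the threshold, an adjusted p of 0.05 from limma with Benjamini-Hochberg adjustment over all probe sets. The largest of the 6 differences was FL below L by 0.17 (-0.17 ± 0.54, SE, 95% interval -1.27 to 0.92, adjusted p = 0.94), and the other 5 adjusted p lay between 0.934 and 0.997. Carrier kidneys did differ between strains in other genes. The share of all probe sets past the threshold was 1.55% for F against L, 1.59% for FL against L, 0.193% for LF against L, 0.0682% for F against FL, 2.11% for LF against F and 3.07% for LF against FL.

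After treatment the Havcr1 signal was higher in some arrays of every strain, at different times and to different heights. Of the 32 treated arrays, 25 lay above every carrier array. The 7 that did not were all 4 L arrays at day 7, L replicate 4 at day 10 and FL replicates 3 and 4 at day 7.

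In F Havcr1 was as high at day 7 as at day 10. F arrays at day 7 stood at 7.61, 6.60, 6.14 and 7.58, a mean of 6.98 ± 0.73 (SD, n = 4). At day 10 they stood at 7.37, 7.68, 5.44 and 7.00, a mean of 6.87 ± 0.99 (SD, n = 4). Every treated F array lay above every F carrier array, the days overlapped each other, and replicate 3 was the lowest on both days. Against carrier, Havcr1 rose in F by 3.18 ± 0.54 (SE) log2 units at day 7, a 9.08-fold higher signal (adjusted p = 0.00128, 0.671% of all probe sets passing). At day 10 it rose by 3.07 ± 0.54 (8.41-fold, adjusted p = 0.00252, 0.239% passing). Without the arrays of replicate number 4 the adjusted p at day 7 was 0.0747, and without those of number 2 or number 4 the adjusted p at day 10 was 0.127 or 0.117.

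In LF Havcr1 stood as high as in F at day 7 and was higher still at day 10. LF arrays at day 7 read 7.75, 7.10, 6.06 and 6.45, with a mean of 6.84 ± 0.74 (SD, n = 4). At day 10 they read 9.32, 8.48, 7.32 and 8.47, with a mean of 8.40 ± 0.82 (SD, n = 4), the highest group of the study. All treated LF arrays lay above the LF carrier arrays, and the lowest at day 10 overlapped the highest at day 7. The rise was 2.96 ± 0.54 (SE) at day 7 (7.78-fold, adjusted p = 9.81e-04, with 2.26% of all probe sets passing) and 4.52 ± 0.54 at day 10 (22.9-fold, adjusted p = 6.64e-07, 0.887% passing). Without the arrays of replicate number 2 the adjusted p at day 7 was 0.072.

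In FL the signal was higher mainly at day 10, and unevenly so. FL arrays at day 7 were 5.61, 4.46, 4.18 and 4.30, a mean of 4.64 ± 0.66 (SD, n = 4). At day 10 they were 4.64, 5.43, 8.03 and 5.76, a mean of 5.96 ± 1.5 (SD, n = 4). Each treated FL array exceeded the 4 FL carrier arrays, but replicate 1 led at day 7 and was lowest at day 10, while replicate 3 alone passed 6 at day 10. The differences from carrier, 0.90 ± 0.54 (SE) at day 7 (adjusted p = 0.812, 0.159% of all probe sets passing) and 2.23 ± 0.54 at day 10 (adjusted p = 0.119, 0.0909% passing), did not pass the threshold. Without FL day 10 replicate 1 the latter had an adjusted p of 0.0463, and without replicate 3 an adjusted p of 1.

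In L the arrays at day 7 were close to carrier, and at day 10 they split. L arrays at day 7 gave 3.48, 4.23, 4.17 and 3.91, a mean of 3.95 ± 0.34 (SD, n = 4), within the span of the carrier arrays but for replicate 1, which lay below it. At day 10 they gave 6.63, 4.56, 7.04 and 4.09, a mean of 5.58 ± 1.5 (SD, n = 4). Replicates 1 and 3 were thus high, replicate 2 was slightly above the carrier arrays and replicate 4 among them. The L difference from carrier was 0.04 ± 0.54 (SE, 95% interval -1.06 to 1.13, adjusted p = 0.996) at day 7 and 1.67 ± 0.54 (95% interval 0.57 to 2.77, adjusted p = 0.964) at day 10, neither past the threshold. In each of these L comparisons 0.0114% of all probe sets, a single one, passed.

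**Figure D1:**
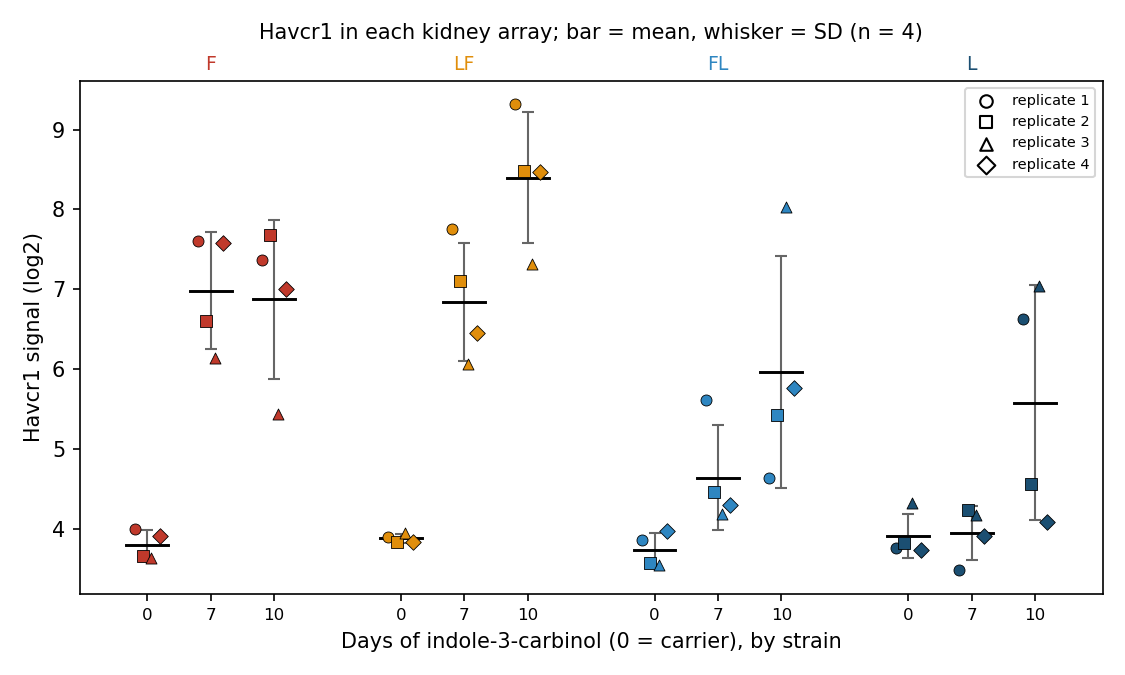
Havcr1 log2 signal (y axis) in each of the 48 arrays by strain and days of treatment (x axis); marker shape gives the replicate number, bars the group mean and whiskers the SD (n = 4). Carrier arrays lie between 3.55 and 4.32, F and LF are raised at both treated days, and FL and L at day 10 spread from 4.64 to 8.03 and from 4.09 to 7.04.

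Averaged over the strains, Havcr1 went from 3.83 at day 0 to 5.6 at day 7 and 6.7 at day 10. It rose by 1.77 ± 0.27 (SE, 95% interval 1.22 to 2.32) at day 7 (adjusted p = 3.40e-05) and by 2.87 ± 0.27 (95% interval 2.32 to 3.42) at day 10 (adjusted p = 1.74e-09). In both it was the largest rise of all 8797 probe sets, of which 4.94% and 2.41% passed. The 2 comparisons share their carrier arrays. Replicate numbers mark array runs of 12 arrays, 1 from each group, so differences could also be read within a run. Within the 4 runs the strain mean was higher by 1.27 to 2.23 at day 7 and by 2.46 to 3.11 at day 10. All 4 strains were positive in each run at day 10, and at day 7 L was negative in runs 1 and 3.

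From day 7 to day 10 Havcr1 differed by 1.10 ± 0.27 (SE) in the strain mean (adjusted p = 0.103, 0.114% of all probe sets passing), which missed the threshold. Without L day 10 replicate 4 the adjusted p was 0.0381, without FL day 10 replicate 4 it was 0.0431, and without F day 10 replicate 3 it was 0.0435. The other 49 of the 52 fits with arrays left out missed the threshold, with the highest adjusted p, 0.417, without the arrays of replicate number 2. By strain the difference between the days was -0.11 ± 0.54 in F (adjusted p = 0.99), 1.63 ± 0.54 in L (adjusted p = 0.812), 1.33 ± 0.54 in FL (adjusted p = 0.823) and 1.56 ± 0.54 in LF (adjusted p = 0.135). The share of all probe sets passing between the days was 0% in F, L and FL and 1.17% in LF. At an unadjusted p under 0.05 limma counted 367 probe sets in F, 430 in L and 521 in FL.

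**Figure D2:**
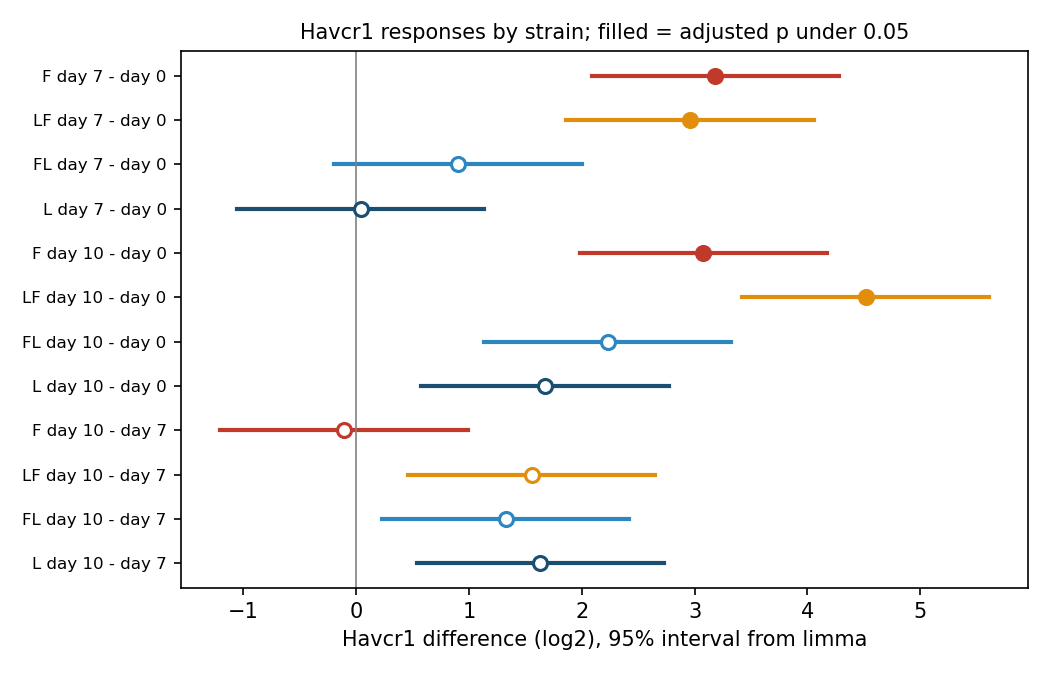
Havcr1 differences in log2 units (x axis) within each strain (y axis) with 95% intervals from limma; filled points have an adjusted p under 0.05. The 4 filled points are F and LF at day 7 and day 10, from 2.96 to 4.52, and the intervals of L and FL at day 7 and of F between the days include 0.

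The spread of Havcr1 differed between groups, which a fit with 1 shared spread does not model. The SD over 4 arrays was 0.056 to 0.28 in carrier groups and 0.34 to 1.5 in treated groups. An exact permutation test (two-sided, 4 arrays against 4, smallest possible p = 0.0286) was therefore read beside it. It gave that smallest p for F, LF and FL at both days against carrier, 0.0571 for L at day 10 and 0.886 for L at day 7. Adjusted over the 12 comparisons within strains, the smallest exact permutation p was 0.0571. With this floor no single comparison can pass after that adjustment, whatever its values, unless most of the 12 reach the floor together.

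In the order of the 12 group means LF day 10 (8.40) stood first, followed by F day 7 (6.98), F day 10 (6.87), LF day 7 (6.84), FL day 10 (5.96), L day 10 (5.58), FL day 7 (4.64), L day 7 (3.95) and the 4 carrier groups (3.91 to 3.74). In all 11 pairs of neighbours in this order the ranges overlapped. The gap from LF day 10 to F day 7, 1.42, was smaller than the sum of their SDs, and so was the gap of every other pair of neighbours.

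Strains separated most clearly at day 7. There all 4 F arrays and all 4 LF arrays lay above all L and all FL arrays, while F and LF overlapped each other. Over the 12 strain pairs at the treated days an exact two-sided permutation test gave p = 0.0286 for F against L, LF against L, F against FL and LF against FL at day 7 and for LF against L at day 10. Adjusted over the 12 pairs, the exact permutation p of these 5 was 0.0686. At day 10 LF exceeded L by 2.82 without overlap, but LF overlapped F and FL, and F overlapped L and FL.

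Tested as differences in response with limma, the strains were not told apart at the threshold. The F response exceeded that of L by 3.14 ± 0.77 (SE) at day 7 (95% interval 1.59 to 4.70, unadjusted p = 1.98e-04, adjusted p = 0.218), and that of LF exceeded it by 2.92 ± 0.77 (adjusted p = 0.277). F exceeded FL by 2.28 ± 0.77 (adjusted p = 0.641), LF exceeded FL by 2.06 ± 0.77 (adjusted p = 0.621), FL exceeded L by 0.86 ± 0.77 (adjusted p = 1), and LF and F differed by -0.22 ± 0.77 (95% interval -1.77 to 1.33, adjusted p = 0.95). At day 10 the widest gap was LF over L by 2.85 ± 0.77 (95% interval 1.30 to 4.40, adjusted p = 0.369), then LF over FL by 2.29 ± 0.77 (adjusted p = 0.842). The other 4 pairs at day 10 differed by 0.56 to 1.44, with adjusted p of 0.783 to 1. The LF against L and LF against FL gaps passed without the arrays of replicate number 3 (adjusted p = 0.00871 and 0.0229). Of the 52 fits with arrays left out, neither gap passed in the other 51.

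Few probe sets passed in any of these tests. The share was 0.0568% for LF against L, F against FL and LF against F at day 7 and 0.114% for LF against FL. It was 0.0227% for LF against L and LF against F at day 10 and 0.0114% for LF against FL. For F against L and FL against L at both days, and for F against FL at day 10, it was 0%, with 218 to 522 probe sets at an unadjusted p under 0.05 in limma.

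A moderated F test over all strains and both days gave Havcr1 an adjusted p of 0.135 (0.193% of all probe sets passing), and one on the day 7 response alone gave 0.102 (0.125% passing). These calls changed with the arrays in the fit. With only the arrays of days 0 and 7 in the fit, the F test of the day 7 response gave adjusted p = 5.28e-04. Each strain pair was fitted apart, on only its own day 0 and day 7 arrays. These limma fits gave adjusted p of 0.00542 for F against L and 0.0058 for LF against L. Leaving out FL day 10 replicate 3 alone, the highest of its group at 8.03, gave 0.0222 for the same F test and 0.0206 for the one over both days. Without the arrays of replicate number 2 these F tests gave adjusted p of 0.911 and 0.979. In 50 of the 52 fits with arrays left out neither F test passed. The day 7 pairs were added after the values were seen.

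Read against the other genes of its own array, the Havcr1 rise led. For each treated array, the difference from the mean of the 4 carrier arrays of its strain was ranked among those of all probe sets. Havcr1 ranked first in 11 of the 32 treated arrays and within the first 10 in 21. It was first in all 4 LF arrays at day 10, where its rise was 5.44, 4.60, 3.44 and 4.59 for replicates 1 to 4. At day 7 it ranked 1, 1, 4 and 2 in F, and 2, 2, 3 and 1 in LF. In FL it ranked 1 in replicate 1 at day 7 with a rise of 1.87, but between 179 and 397 in the other 3. At day 10 FL ranks were 81, 7, 2 and 3. In L the ranks at day 7 were 8439, 669, 781 and 3261, and at day 10 they were 2, 123, 1 and 1658. The rank is taken from the Havcr1 signal itself, so the split of the L arrays at day 10 is the same split described again.

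**Figure D3:**
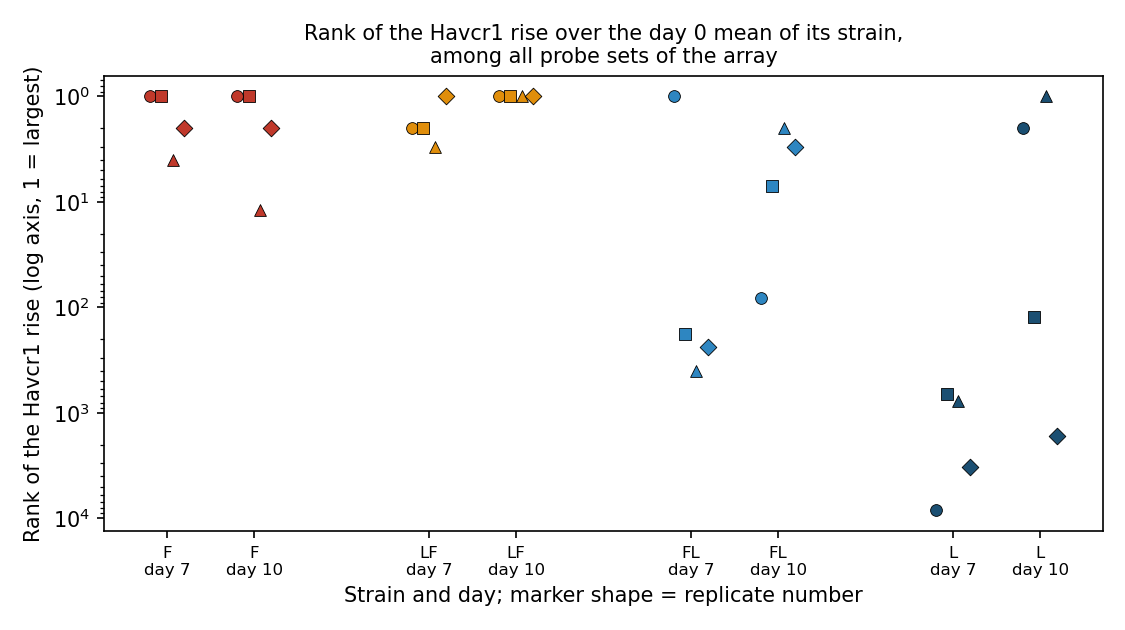
Rank of the Havcr1 rise among all 8797 probe sets (y axis, log scale, 1 at the top) in each of the 32 treated arrays by strain and day (x axis); marker shape gives the replicate number. All 4 LF arrays at day 10 are at rank 1, and L arrays at day 7 lie between 669 and 8439.

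Genes whose signal followed Havcr1 were sought by Pearson correlation over the 48 arrays among 7588 other genes, as a description with no test, since all points share the groups and 1.7% of genes had r over 0.5. Clu, the secreted chaperone clusterin, was most alike (r = 0.93). Next were the fibrinogen chain gene Fgb (0.91), Timp1, an inhibitor of matrix metalloproteinases (0.90), the protease inhibitor Serpina3n (0.89), the adhesion receptor Pvr (0.88) and the hyaluronan receptor Cd44 (0.87). S100a10, which binds annexin A2 (0.86), Gpnmb, a membrane glycoprotein of injured tubules and macrophages (0.85), Fga, another fibrinogen chain (0.84), and the phosphate transporter Slc34a2 (0.83) completed the first 10. The order depended on the measure. By Spearman correlation Serpina3n came first and Clu 6th, with 7 of the 10 shared, and without the LF arrays Fgb came first and Clu 2nd, with 8 shared. Likeness also held inside groups, to differing degrees. Over deviations of the 48 arrays from their group means, r was 0.89 for Clu, 0.82 for Fgb and 0.80 for Serpina3n and Cd44. Among the first 10 genes it was lowest for Timp1 (0.63), Gpnmb (0.62) and S100a10 (0.56). The tight junction gene Cldn4 (0.80), Angptl4 (0.72) and Runx1 (0.69) were picked by this measure. Of the 10 genes highest by that measure, 7 were among the first 10 over all arrays.

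These 10 genes moved far less than Havcr1. In the strain mean at day 10 their rises ran from 0.42 ± 0.067 (SE) for S100a10 to 1.13 ± 0.17 for Serpina3n, with Clu at 1.01 ± 0.11, beside 2.87 for Havcr1. The 5 genes least alike were Aqp2, the water channel of the collecting duct (r = -0.76), the chemokine gene Cxcl12 (-0.74), Igf1 (-0.72), Igfbp5 (-0.72) and the cyclin gene Ccnd1 (-0.68). Their differences in the strain mean at day 10 ran from -0.34 ± 0.051 (SE) for Igfbp5 to -0.64 ± 0.075 for Cxcl12. The choice by likeness over the same arrays set the direction of all 15 genes, so these differences are a description. Of the promoters of the 10 most alike genes, 8 were in the table. Of the motifs in the Havcr1 window, GTTAAT matched in 2 of these (Fgb and Fga, beside 7.45% of all promoters) and ACGTG in 0 (19.3%). Of the others, the STAT motif matched in 3 (Fgb, Serpina3n and Fga, beside 8.87%), GCGTG in 4 (29.7%), TGACTCA in 2 (4.63%), TGACNNNGC in 2 (12.1%), and TATAAA and TGACGTCA in 0.

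Clu followed Havcr1 in most groups, though not in every array. In L at day 10 Clu read 9.52, 8.89, 9.75 and 8.72, high in the same replicates 1 and 3 as Havcr1. In FL at day 10 it read 8.67, 8.91, 9.83 and 8.46, with the same replicate 3 on top, but replicate 4 was lowest in Clu and next to the highest in Havcr1. In L at day 7 Clu stayed between 8.64 and 8.66 while Havcr1 ran from 3.48 to 4.23. In LF at day 10 it read 10.85, 10.58, 10.09 and 10.51, with replicate 1 highest and replicate 3 lowest, as for Havcr1. Within each strain, over 12 arrays, r between Clu and Havcr1 was 0.98 in F, 0.95 in L, 0.94 in FL and 0.95 in LF.

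Lcn2, the secreted lipocalin that marks tubular damage, followed Havcr1 in some strains. Over 12 arrays r was 0.98 in LF, 0.89 in L, 0.81 in F and -0.14 in FL. It was 0.51 over the 48 arrays, 0.03 over the 36 arrays outside LF and 0.62 over deviations from group means. Carrier Lcn2 already stood higher in L (mean 5.85) and LF (5.63) than in F (4.51) and FL (4.80), which enters the r over pooled strains. Lcn2 arrays at day 10 gave 8.10, 7.86, 7.51 and 7.88 in LF against 5.48 to 5.85 in carrier LF. In FL at day 10 they gave 4.76, 4.61, 4.83 and 4.70, and only replicate 2 lay below the lowest carrier array (4.69) and none above the highest, although FL replicate 3 had a Havcr1 signal of 8.03. In F all 4 arrays at day 10 (4.70 to 5.12) lay above all 4 carrier arrays (4.42 to 4.61), a difference of 0.45 ± 0.20 (SE) that did not pass (adjusted p = 0.499).

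Hmox1, a stress-induced gene whose enzyme breaks down haem, and Cyp1a1 tracked Havcr1 less closely than Clu did. Over the 48 arrays r was 0.59 and 0.56, beside 0.93 for Clu and 0.51 for Lcn2. Within strains, over 12 arrays each, r for Hmox1 was 0.69 in F, 0.36 in L, 0.82 in FL and 0.36 in LF. For Cyp1a1 it was 0.74 in F, 0.49 in L, 0.74 in FL and 0.54 in LF. Over deviations from group means r was 0.25 for Hmox1 and 0.19 for Cyp1a1. In LF at day 7 Hmox1 rose with Havcr1, by 4.07 ± 0.86 (SE, adjusted p = 0.00529), with arrays at 10.19, 9.14, 10.57 and 5.87. In LF at day 10, where Havcr1 was highest, it read 6.10, 5.97, 5.22 and 5.96, and 6 of the 8 treated F arrays lay above all of these. Cyp1a1 averaged 5.31 ± 0.95 (SD, n = 4) there, beside 4.79 ± 0.29 in carrier LF and 7.22 ± 0.34 in F at day 10. Cdkn1a, the cell cycle inhibitor p21, had r = 0.72. Ace, the angiotensin converting enzyme, had r = 0.16 over the 48 arrays but r below 0 within each strain, -0.69 in F, -0.58 in LF, -0.43 in L and -0.15 in FL over 12 arrays each. In the strain mean Ace fell at day 10 (-0.29 ± 0.079, adjusted p = 0.034). Its carrier means were 7.62 ± 0.085 (SD, n = 4) in F and 7.17 ± 0.16 in LF, the strains with raised Havcr1 at day 7, and 6.27 ± 0.23 in FL and 6.02 ± 0.21 in L. A link between carrier Ace and the Havcr1 rise was not tested, and with 4 strains it cannot be told apart from other strain differences.

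**Figure D4:**
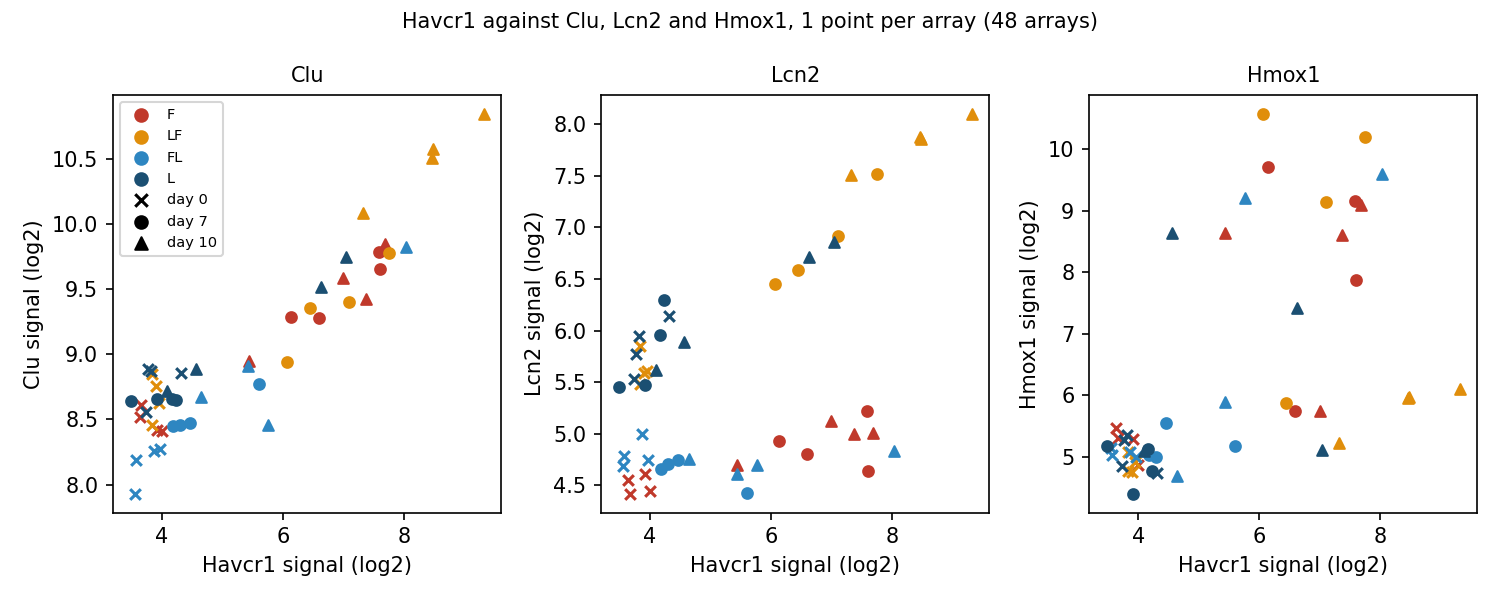
Havcr1 log2 signal (x axis) against the log2 signal of Clu, Lcn2 and Hmox1 (y axes), 1 point for each of 48 arrays, coloured by strain with marker shape for the day. Clu rises with Havcr1 in all strains, Lcn2 reaches 8.10 in LF but no more than 5.22 in F and FL, and Hmox1 is low in LF at day 10 at high Havcr1.

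Timd2 was the other member of the family with a probe set and is the gene next to Havcr1 among those measured. Its product, TIM-2, is a receptor for ferritin in mice. Its likeness to Havcr1 varied by strain (r of -0.20 in F, 0.67 in L, 0.01 in FL and 0.37 in LF over 12 arrays each), and so did its level. Carrier arrays gave 6.30, 6.43, 6.03 and 6.35 in F and 6.38, 5.76, 5.56 and 6.32 in FL, against 7.45, 7.22, 7.37 and 6.38 in L and 7.43, 8.09, 7.20 and 6.92 in LF. L and LF thus lay higher, with L replicate 4 alone among the F and FL values. At day 10 all L and LF arrays (7.16 to 8.73) lay above all F and FL arrays (4.63 to 6.62). At day 0 LF exceeded FL by 1.41 ± 0.38 (SE, adjusted p = 0.0272), and the other 5 pairs did not pass. In the strain mean Timd2 stood at -0.57 ± 0.19 at day 7 (adjusted p = 0.0694, and 0.00977 with the replicate number as a block) and at 0.04 ± 0.19 at day 10 (adjusted p = 0.995). Strain differences in the sequence under the probes were not tested.

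The other measured neighbours on the chromosome, in the order of the GRCr8 annotation, were Ebf1, Clint1, Thg1l and Garin3 before Timd2 and Havcr1, and Rack1, Irgm, Ifi47, Or2v1 and Mgat1 after. None of these 9 rose in the strain mean at either day. The interferon-induced GTPase genes Irgm and Ifi47 fell at day 7, by 0.63 and by 0.48 (-0.63 ± 0.13, adjusted p = 0.0019, and -0.48 ± 0.12, adjusted p = 0.00979). Ifi47 also differed in 2 of the 6 strain pairs at day 0, and the remaining 8 in none.

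**Figure D5:**
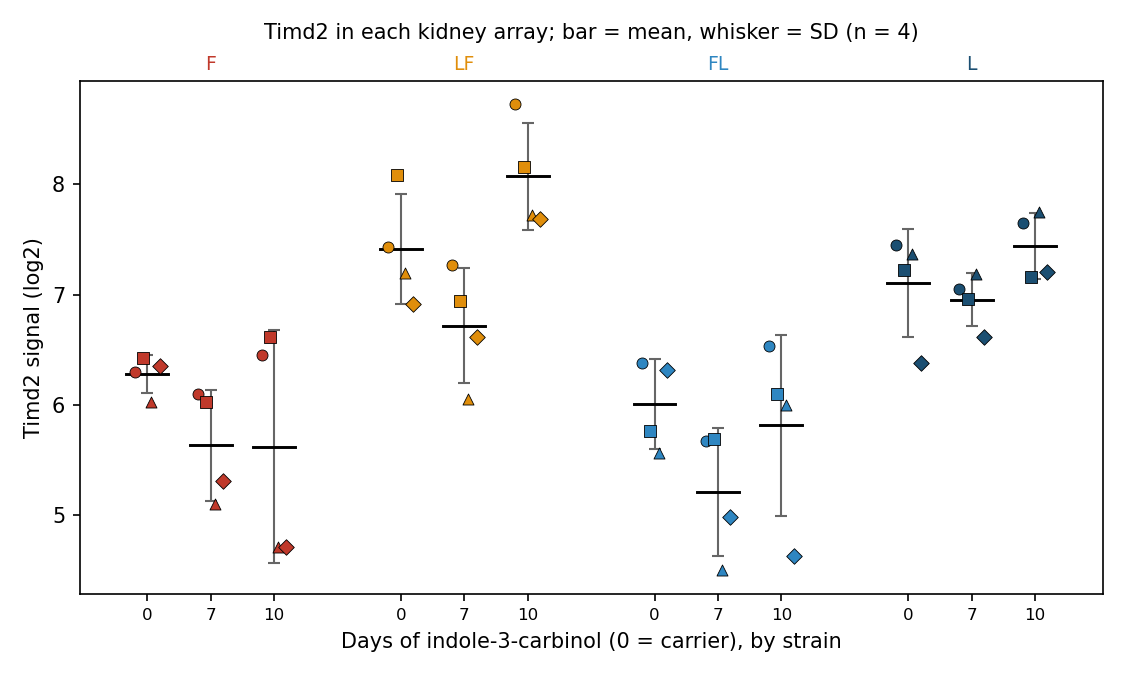
Timd2 log2 signal (y axis) in each of the 48 arrays by strain and days of treatment (x axis); marker shape gives the replicate number, bars the mean and whiskers the SD (n = 4). L and LF arrays at day 10 (7.16 to 8.73) lie above F and FL arrays (4.63 to 6.62).

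The setting of Havcr1 was read from 11 gene lists, counted in the strain mean at day 7 and day 10, where 1.19% and 1.26% of all probe sets were higher and 3.75% and 1.15% lower, and in LF at day 10 (0.591% higher, 0.296% lower). The split at day 7, 105 probe sets higher and 330 lower, moved with the scaling, to 256 and 310 after subtracting array medians and to 268 and 225 with the array spread as covariate. Single arrays moved the lower count too, to 200 without F day 7 replicate 4, 207 without LF day 0 replicate 2, 214 without FL day 0 replicate 1, 215 without LF day 7 replicate 3 and 591 without L day 0 replicate 4. In LF at day 10 the split was 52 higher and 26 lower, and 76 and 74 after subtracting array medians. There the higher count was 29 without LF day 10 replicate 1, 32 without LF day 0 replicate 1 and 33 without LF day 0 replicate 4, and the lower count 17 without LF day 0 replicate 2. The median over all probe sets was -0.03 at day 7 and 0.00 at day 10. Of the injured proximal tubule genes, 8 of 37 measured rose and 1 fell at day 7 (median 0.03, with 3 falling under the replicate block), and 12 rose and 1 fell at day 10 (median 0.14). The 4 smallest p among the rises at day 10 belonged to Fgb (0.92 ± 0.11, SE), Vim, the mesenchymal filament gene (0.35 ± 0.056), S100a10 (0.42 ± 0.067) and Fga (0.92 ± 0.15). Of the genes measured as urinary or renal injury markers, 6 of 20 rose and 2 fell at both days (medians -0.04 and 0.02, with 6 falling under the replicate block at day 7). Clu, Timp1 (0.83 ± 0.099), Lcn2 (0.75 ± 0.10) and Gpnmb (0.63 ± 0.088) had the smallest p among the rises at day 10, and Calb1 of the distal tubule (-0.84 ± 0.12) among the falls. In LF at day 10, 9 of 37 and 5 of 20 rose and none fell, but for 1 of the 20 under the replicate block.

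Of 32 measured markers of the mature proximal tubule, none rose and 7 fell at day 7 (median -0.07), and at day 10 none passed (median -0.02). Between the days, the 4 fallen markers that were looked up did not pass (Lrp2 0.07, Slc5a2 0.04, Anpep 0.03 and Cyp4b1 0.09, adjusted p = 0.363 to 0.853). The falls at day 7 included Lrp2, the endocytic receptor megalin (-0.15), and the glucose transporter gene Slc5a2 (-0.25). In LF at day 10, 1 fell, Slc5a2 (-0.67, adjusted p = 0.00623). After a second quantile normalization 2 rose and 2 fell at day 10.

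Genes around the Havcr1 protein itself were counted in the same way, beside 4.94% of all probe sets passing at day 7 and 2.41% at day 10. Of 8 measured genes for shedding, Timp1 rose and Timp3 fell (-0.18 ± 0.044 at day 10, adjusted p = 0.0127), while Adam17, a protease of ectodomain shedding, stood at -0.02 ± 0.08 (adjusted p = 0.995). Of 10 measured genes for uptake of dying cells, among them Axl (0.14 ± 0.053, adjusted p = 0.241) and Mertk (-0.04 ± 0.076, adjusted p = 0.994), none passed at either day, though under the replicate block 1 fell at day 7 and 1 rose in LF at day 10. Of 21 measured genes of STAT3 signalling, 1 rose and 1 fell at day 7 (3 rising under the replicate block), and 3 rose at day 10, namely Serpina3n, Stat3 (0.22 ± 0.047, adjusted p = 0.00421) and the oncostatin M receptor gene Osmr (0.57 ± 0.13, adjusted p = 0.00595). Of 6 measured AhR targets only Cyp1a1 rose (1.74 ± 0.22 at day 10, adjusted p = 9.14e-07), and in LF at day 10 none did.

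Lymphocytes can also carry Havcr1, and macrophages gather in injured kidneys, so their markers were read beside it. Of 13 measured T cell markers none rose at either day, and Cd4 fell at both (-0.33 ± 0.092 at day 10, adjusted p = 0.0439). Their mean level per array, centred on all arrays, ranged from -0.07 to 0.12 at day 0 and from -0.20 to 0.11 at day 10. Of 4 measured B and plasma cell markers none passed, with the mean level from -0.16 to 0.22 at day 0 and from -0.09 to 0.09 at day 10. Cd3e, Lck, Cd79a and Ms4a1 had no named probe set, and the defining T cell markers Cd3d and Cd2 averaged 3.70 and 3.03 at day 0. Of 12 measured macrophage markers none rose and 3 fell at day 7 (5 under the replicate block), and at day 10 only Itgam rose (0.14 ± 0.038, adjusted p = 0.0306) and none fell (1 under the block). Their mean level ranged from -0.28 to 0.42 at day 0, from -0.32 to 0.21 at day 7 and from -0.55 to 0.37 at day 10. In LF, where Havcr1 rose at both days, all 4 arrays at day 7 (-0.32 to -0.11) lay below all 4 carrier arrays (0.00 to 0.42), and at day 10 they overlapped them (0.11 to 0.37). The other lists had lower means in LF at day 7 than in carrier LF as well, though with overlapping ranges. They went from 0.07 to -0.03 for T cell, from 0.05 to -0.02 for B and plasma cell and from 0.13 to -0.05 for proximal tubule markers. The macrophage genes Adgre1 (-0.93 ± 0.21, adjusted p = 0.0114) and Fcgr3a (-1.27 ± 0.27, adjusted p = 0.00605) fell in LF at day 7, where 2.26% of all probe sets passed. The part of these markers in the Havcr1 result was not tested.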

How the data were processed

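Kidney RNA was hybridised to whole-transcript arrays after removal of ribosomal RNA, per the labels' protocols. The authors deposited log2 signals per probe set, RMA and limma being listed in the submitters' processing notes, with no version or role. The genome build and the choice of probe sets are not given in the sources used here. No further scaling was applied. Group means were fitted to all 48 arrays in R 4.3.3 with limma 3.58.1 (36 residual and 3.69 prior degrees of freedom). Of the list genes, 161 of 242 were measured, and where a gene had several probe sets the one with the highest mean was used. The fit was tested on simulated data, with array deviations shuffled over all groups and the same day 10 rises added in all 4 strains. Neither rises that differ between strains nor the unequal group spreads of Havcr1 were simulated.

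Havcr1 and the lists were chosen with earlier results of these data known. Genes were named by a rule: Havcr1, its family, its measured neighbours, up to 4 members of each list by p, the genes most and least alike, and 7 companions. Members named beyond it were chosen after their values were seen. Same-numbered arrays share a run code in the labels' array names. Their deviations from group means correlated at 0.0942 on average, against -0.0314 for other numbers. Alternatives covered the block, scaling, array quality, filter, variance model, test and single arrays.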

Additional observations from a re-analysis of the deposited data

Results flagged for a closer look

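Of 156 groups of 4 arrays (12 groups for each of 13 genes), 9 held an array far from the other 3, and chance gives such an array in about 1 in 20 groups. For Havcr1 this was L day 0 replicate 3 at 4.32, beside 3.74 to 3.82. For Hmox1 it was F day 10 replicate 4 at 5.74, beside 8.61 to 9.09, where the same array had a Havcr1 signal of 7.00, and LF day 10 replicate 3 at 5.22, beside 5.96 to 6.10. Clu had FL day 7 replicate 1 at 8.77, beside 8.45 to 8.47, the array that also had the highest Havcr1 of its group, and L day 0 replicate 4 at 8.56. Cyp1a1 had FL day 10 replicate 4 at 5.70, Timp1 F day 0 replicate 4 at 5.41, Cdkn1a FL day 0 replicate 1 at 5.61 and Pvr FL day 0 replicate 3 at 5.14.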

How the results depend on the processing

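The 35 Havcr1 results were recomputed under 8 to 10 other settings each, and with each of the 48 arrays, and each replicate number, left out. With the replicate number as a block no Havcr1 call changed: the mean rise was 2.87 at day 10 (adjusted p = 7.36e-09) and 1.77 at day 7 (4.74e-05), and LF at day 10 rose by 4.52 (1.45e-06). The block moved the probe sets called lower in the strain mean at day 7 from 330 to 787 and those called higher from 105 to 189. The cause of the changes below was not tested.

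By the exact permutation test, whose floor leaves little room to pass after adjustment, no strain passed (F 3.18 and 3.07, LF 2.96 and 4.52 at days 7 and 10, adjusted p = 0.0571 each). With the array spread as covariate, differences near 0 changed sign: F day 10 against 7 was 0.03, F against FL at day 0 -0.04, LF against F 0.00, LF against FL -0.04, and the day 7 response of LF against F 0.01. The last was 0.04 without the 5 arrays of lowest spread. The F test of the day 7 response passed after a second quantile normalization (0.042), with the spread covariate (0.0438) and with only the groups compared (5.28e-04), where F against L (3.15) and LF against L (2.92) also passed. The F test over both days passed with array weights (0.0474). At day 10 the fallen genes numbered 4 in the injury panel, 0 in the injured tubule list and 2 among proximal tubule markers after subtracting array medians. After a second quantile normalization they numbered 0 in the injured list, and 2 proximal tubule markers rose and 2 fell. Such scaling moved the split of probe sets called in the strain mean at day 7 from 105 higher and 330 lower to 256 and 310 (medians), 267 and 367 (quantile) or 268 and 225 (spread covariate).

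With arrays left out, F rose by 2.97 to 3.46 at day 7 and by 2.76 to 3.55 at day 10, and LF by 2.66 to 3.24 at day 7. L at day 7 ran from -0.09 to 0.19 and FL from 0.58 to 1.09 at day 7 and from 1.48 to 2.71 at day 10. For day 10 against 7 the F difference lay between -0.51 and 0.37, that of FL between 0.49 and 2.09, and the strain mean between 0.86 and 1.23. At day 0, F against L ran from -0.23 to 0.08, FL against L from -0.31 to 0.03, LF against L from -0.09 to 0.11 and F against FL from 0.00 to 0.14. The day 10 response ran from -0.13 to 1.44 for FL against L, from 0.78 to 2.17 for F against L, from 0.26 to 2.02 for F against FL, from 0.97 to 1.80 for LF against F, from 2.35 to 3.58 for LF against L and from 1.51 to 3.42 for LF against FL, and the day 7 response of LF against F from -0.53 to 0.06. The adjusted p of the F tests ran from 0.0128 to 0.979 over both days and from 0.0222 to 0.911 at day 7.

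The 4 arrays in each group limit the strain comparisons. Without FL day 10 replicate 3 alone both F tests passed (0.0206 over both days and 0.0222 at day 7). Without the arrays of replicate number 2 neither F test did (0.979 and 0.911).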
